A study of Mus musculus with 74 samples.

Results

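The genes described here build the cornified envelope of stratified epithelium or hold its cells together. They were chosen by name as the rows of a mouse gut RNA-seq count table whose symbols begin with Sprr, or with Lce, Dsg, Dsc or Tgm and a digit, plus Lor, Ivl, Krtdap, Sbsn, Cnfn, Lypd2, Lypd3, Serpinb5 and 2300002M23Rik. They number 61 of 24015 genes. They comprise 38 envelope precursors (15 Sprr and 21 Lce genes, Lor and Ivl), 7 secreted or surface genes, 7 transglutaminases and 9 desmosomal cadherins (6 Dsg and 3 Dsc). Filaggrin (Flg) was not analysed here.

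In skin, and in the lining of the mouse forestomach, cells that move up from the basal layer assemble a cornified envelope beneath the plasma membrane. Transglutaminases crosslink precursors such as loricrin, involucrin and the small proline-rich and late cornified envelope proteins into it. Desmosomal cadherins, the desmogleins and desmocollins, join neighbouring cells, and stratified epithelia use members of both families that simple epithelia such as the intestine largely lack.

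The study profiled epithelium of the embryonic mouse gut and adult ileum, with and without Cdx2, a homeodomain transcription factor of the intestine. Forestomach (FS), hindstomach (HS, the glandular stomach) and small intestine (SI) came from wild-type CD1 embryos at embryonic day (E) 12, 14 and 16, and small intestine also at E18. The E12 and E14 small intestine cells are labelled as midgut. Cdx2-/- small intestine came from embryos of a B6;129 mixed background: Cdx2f/f; Shh-Cre at E16, described as deleted at E10 and with no drug treatment given in the labels, and Cdx2f/f; Villin-Cre at E16 (deleted at E13) or E18 (deleted at E15) after 5 mg tamoxifen by oral gavage. Shh-Cre and Villin-Cre are drivers active in the gut epithelium, and Villin-Cre here depended on tamoxifen. Adult wild-type ileum came from Cdx2f/f animals without Cre that received sunflower oil on 5 days, and adult Cdx2-/- ileum from Cdx2f/f; Villin-Cre animals that received 1 mg tamoxifen on 5 days. The adult animals were of the same mixed background and were sacrificed 3 days after the last injection. Embryonic cells at E12 to E16 were sorted for the epithelial surface protein Epcam, whereas E18 and adult epithelium was released as villi. Each of the 15 groups had 2 libraries except the E10-deleted group, which had 3. The labels do not say that libraries of a group came from separate animals. P-values therefore measure spread between libraries, which may be technical. For the embryo that spread was estimated over all 13 groups together, not from the libraries compared alone. The groups differed in it. The chi-square per degree of freedom between 2 libraries of a group was 1.53 in E18 small intestine and up to 132 in the E10-deleted group. Strain and genotype cannot be told apart where Cdx2-/- embryos are compared with wild-type embryos. The E10-deleted and E13-deleted groups share their background. They differ in Cre driver and tamoxifen as well as in the day of deletion, which cannot be told apart either. Nor can tamoxifen and Cre be told apart from the deletion in any of the comparisons that used Villin-Cre. The same holds for Cre where E10-deleted embryos, which carry Shh-Cre, are compared with wild-type embryos.

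Library totals ran from 5970227 to 62463167 counts, and the E16 forestomach libraries were the shallowest. Cdx2 itself went against 3 of the 4 knockout labels. It stood at 17.4, 14.5 and 27.5 CPM (read counts scaled to a common library total by the TMM method) in the 3 E10-deleted libraries against 196 and 218 in E16 small intestine. In the libraries labelled deleted at E13 it was 213 and 217 CPM, in those labelled deleted at E15 388 and 371 against 200 and 206 at E18, and in the adult libraries labelled Cdx2-/- 472 and 462 against 242 and 248. Counts per gene cannot show whether part of a gene was removed, so these groups are called by their labels. At E14 and E16 the forestomach label was borne out by its markers. Krt5, Krt14, Krt15 and Trp63 together took 0.273% to 0.283% of counts in E14 and 0.548% to 0.673% in E16 forestomach. The other wild-type libraries held at most 0.0174%. At E12 these genes took 0.00448% to 0.00488% in forestomach, 0.00218% to 0.00235% in hindstomach and 3.95e-06% to 0.000233% in small intestine. They thus set E12 forestomach apart from hindstomach only weakly. The E16 forestomach libraries also held 2.21% and 2.63% of counts from 10 mesenchyme and muscle genes and 1.59% and 2.02% from 10 blood and immune genes, against 0.0164% to 0.0167% and 0.00101% to 0.00154% at E14. Each of the 10 mesenchyme genes had a higher group mean at E16, while Hba-a1 and Hbb-bt were at 0 in both groups.

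Most of the 61 genes were scarcely counted. 14 had no count in any of the 31 libraries, among them 10 of the 14 Lce1 genes, and no Lce1 gene exceeded 2 counts in a library. The filter on low counts kept 26 of the 61 among 17239 genes in the embryonic libraries and 10 of the 61 among 12444 in the adult libraries, 27 in all. The filter kept 4 of the 15 Sprr genes in the embryo (Sprr1a, Sprr2b, Sprr2g and Sprr3), 1 of the 6 Lce3 genes (Lce3a), Lce6a, 6 of the 7 transglutaminases and 5 of the 9 cadherins. The Sprr2 and Lce genes are close copies of each other, so reads can be split or lost between them, and values of single Sprr2 and Lce genes are uncertain. A gene counted in 1 group alone passes the filter through that group, so the counts of genes called below describe the genes tested and are not evidence on the 61 as a whole. In bulk RNA, fewer cells of a type and less RNA per cell cannot be told apart.

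**Figure D1:**
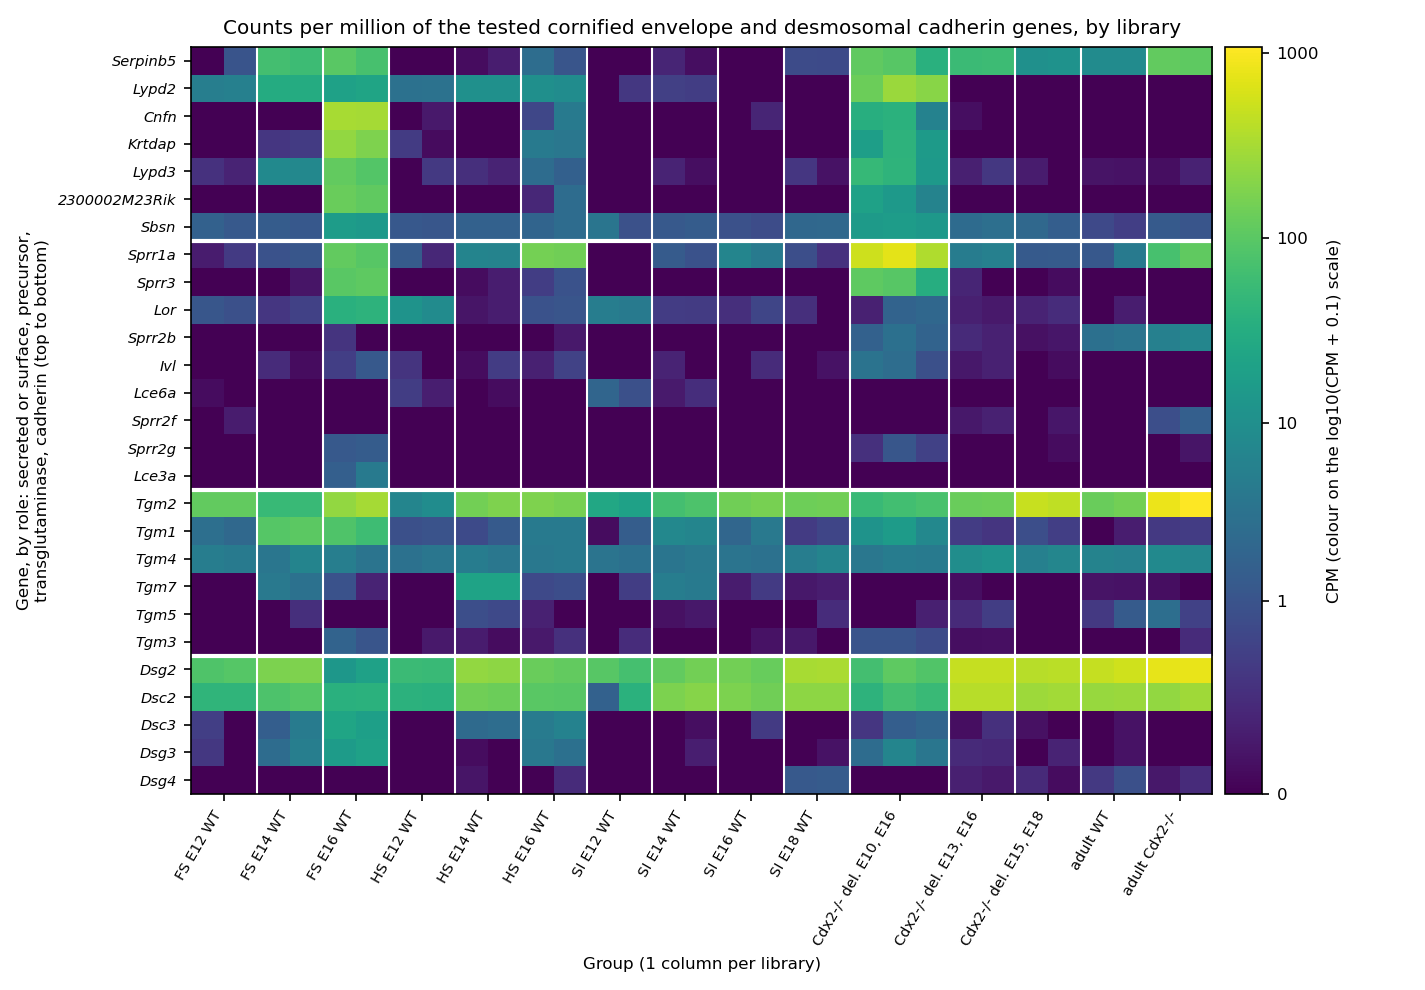
CPM of the 27 tested genes (one per line, grouped by role) in each of the 31 libraries (one per column, grouped by tissue, day and genotype), coloured on the log10(CPM + 0.1) scale. The E16 forestomach and E10-deleted libraries are the ones where most secreted genes and precursors are bright, while Dsg2, Dsc2 and Tgm2 are counted in all 31.

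All 38 precursors lie on chromosome 3, in the epidermal differentiation complex. By RefSeq positions 6 other genes of the count table lie between the first and the last. Krtdap, Sbsn, Cnfn and Lypd3 share chromosome 7. The sequence just before the transcription start is shown for 5 genes that carry the forestomach results below, 3 with and 2 without a TATAAA match. They are taken from RefSeq (GRCm38.p6), 150 bases ending at the base before the start, 5′ to 3′ on the gene's strand, with matches to TATAAA and to the AP-1 letters TGANTCA (either strand) in capitals.
Krtdap, chr7:30787755-30787904, + strand: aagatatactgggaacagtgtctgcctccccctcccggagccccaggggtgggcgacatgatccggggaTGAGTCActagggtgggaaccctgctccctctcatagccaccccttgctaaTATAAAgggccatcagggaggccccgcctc
Sprr3, chr3:92458721-92458870, - strand: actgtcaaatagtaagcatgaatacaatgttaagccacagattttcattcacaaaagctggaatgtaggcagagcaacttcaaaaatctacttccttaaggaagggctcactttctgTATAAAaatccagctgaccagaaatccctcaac
Sprr1a, chr3:92485882-92486031, - strand: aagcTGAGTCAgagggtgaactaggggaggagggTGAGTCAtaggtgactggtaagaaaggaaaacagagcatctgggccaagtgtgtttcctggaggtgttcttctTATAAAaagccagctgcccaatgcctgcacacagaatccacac
Serpinb5, chr1:106861025-106861174, + strand: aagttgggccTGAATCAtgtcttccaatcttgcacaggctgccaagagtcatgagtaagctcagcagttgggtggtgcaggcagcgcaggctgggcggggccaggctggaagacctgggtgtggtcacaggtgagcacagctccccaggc
Cnfn, chr7:25369725-25369874, - strand: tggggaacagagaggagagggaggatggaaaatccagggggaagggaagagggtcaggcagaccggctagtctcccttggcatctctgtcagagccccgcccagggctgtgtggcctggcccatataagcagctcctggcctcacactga
TATAAA starts 30 bases before the start of Krtdap, 33 before Sprr3 and 43 before Sprr1a. TGANTCA starts 81 bases before Krtdap, 140 before Serpinb5, and 146 and 116 before Sprr1a. Within 250 bases before the start, TATAAA was found in 19 of the 47 genes with a RefSeq promoter and in 12.4% of all 32851 promoters of the table. TGANTCA was found in 14 of the 47 and in 6.75% of all. The letters CCNCACCC of KLF factors were found in 8 of the 47 and 14.9% of all, and CAATAAA, read by CDX factors, in 1 of the 47 and 4.2% of all. Genes of a family share sequence, so these counts are not independent, and a match is a description of letters only.

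At E12 fewer of these genes were called between forestomach and the other segments than at E14 or E16. Between forestomach and small intestine 3 were called higher in forestomach and 2 lower, of 26 tested (of all genes tested, 5.37% were called higher and 4.72% lower, 10.1% in all). The chi-square per degree of freedom between the E12 small intestine libraries was 75.9, the highest of the wild-type embryonic groups. Mesenchyme and muscle genes took 0.015% to 0.0157% of counts in forestomach against 0.0303% to 0.0325% in small intestine. Liver and pancreas genes took 0.0264% to 0.0272% against 0.057% to 0.0583%, and the part of these shares was not tested. Lypd2, a Ly6 family surface protein, was at 5.21 and 5.69 CPM in forestomach, 3.08 and 3.20 in hindstomach and 0 and 0.350 in small intestine. It was higher in forestomach than in small intestine by 4.89 on the log2 scale (SE 0.55, edgeR quasi-likelihood test, adjusted p = 2.64e-05). Lor, the precursor loricrin, had its E12 peak elsewhere, at 11.7 and 8.65 CPM in hindstomach and 5.07 and 4.56 in small intestine against 1.09 and 0.854 in forestomach. The forestomach libraries were the lowest for Lor in both comparisons (log2 difference -3.38, SE 0.79, edgeR adjusted p = 0.0081 against hindstomach; -2.30, SE 0.76, adjusted p = 0.0456 against small intestine). Lce6a was also counted at E12, at 1.96 and 0.860 CPM in small intestine against 0.0352 and 0 in forestomach, a ratio of 93.5 with a counting interval of 16.3 to 3730. Between forestomach and hindstomach 2 genes were called higher and 1 lower (of all genes tested, 2.83% were called higher and 4.28% lower, 7.11% in all). By its intestine and stomach markers E12 hindstomach lay nearer small intestine than forestomach. Intestine markers took 0.0226% to 0.0291% of counts there, 0.0372% to 0.0382% in small intestine and 0.00111% to 0.00138% in forestomach. Stomach markers took 0.00117% to 0.00273%, 0.000994% to 0.0013% and 0.0219% to 0.0246%, in the same order. This concerns every E12 comparison with hindstomach, and its part was not tested. Without small intestine replicate 2, the library with all the Lypd2 counts of its group, the fitted Lypd2 difference was 10.03, a value that depends on the prior count since that group was then at 0, and it was still called. Both Lor calls and the Lce6a call were lost when either forestomach library was left out, and the Lypd2, Lce6a and Lor calls against small intestine were lost when only the groups compared were fitted.

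At E14 more of these genes were called higher in forestomach. Against small intestine 7 were higher and 0 lower (of all genes tested, 4.66% were called higher and 7.29% lower, 11.9% in all). Against hindstomach 5 were higher and 2 lower (of all genes tested, 2.85% were called higher and 5.62% lower, 8.46% in all). Liver and pancreas genes took 0.0114% to 0.0117% of counts in E14 forestomach against 0.083% to 0.0862% in hindstomach. Mesenchyme and muscle genes took 0.0164% to 0.0167% in forestomach against 0.0389% to 0.045% in small intestine. Blood and immune genes took 0.00101% to 0.00154% against 0.00532% to 0.00616% there, and the part of these shares was not tested. Serpinb5, the epithelial serpin maspin, rose in forestomach from 0 and 1.01 CPM at E12 to 67.3 and 58.2 at E14. Its E14 levels were 0.0353 and 0.113 CPM in hindstomach and 0.163 and 0.0394 in small intestine, so the forestomach libraries stood apart from all others of that day. The E14 difference was 9.65 on the log2 scale against hindstomach (SE 1.03, edgeR adjusted p = 6.69e-06) and 8.90 against small intestine (SE 0.93, adjusted p = 3.02e-06).

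Tgm1, the membrane-anchored transglutaminase of keratinocytes, moved in the same way. It rose in forestomach from 2.92 and 2.17 CPM at E12 to 93.5 and 103 at E14, a log2 difference of 5.27 (SE 0.69, by edgeR adjusted p = 1.88e-05). At E14 it stood at 0.706 and 1.28 CPM in hindstomach and 7.42 and 6.78 in small intestine. No other segment overlapped the forestomach, and the small intestine lay above the hindstomach. Lypd3, a GPI-anchored protein of stratified epithelium, was at 8 and 7.41 CPM in E14 forestomach against 0.247 and 0.150 in hindstomach. Lypd2 was at 30.3 and 30.1 CPM in E14 forestomach and at 10.3 and 10.3 in hindstomach, higher in forestomach by 1.55 on the log2 scale (SE 0.38, edgeR adjusted p = 0.0126), a call lost when any of the 4 libraries was left out. Tgm7, a transglutaminase, went from 0 and 0 CPM at E12 to 4.24 and 3.14 at E14 in forestomach, at least 81.4-fold higher. In all, 7 genes rose in forestomach from E12 to E14 and 1, Tgm2, fell (of all genes tested, 7.58% rose and 5.13% fell, 12.7% in all).

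Further genes, precursors among them, rose by E16. From E14 to E16, 12 genes rose in forestomach and 1 fell (of all genes tested, 20.8% rose and 16.9% fell, 37.7% in all). Krtdap, a secreted protein of differentiating keratinocytes, went from 0.342 and 0.398 CPM to 241 and 181. Both E16 libraries were far above both E14 libraries (log2 difference 9.13, SE 0.78, edgeR adjusted p = 2.34e-06). Cnfn, the envelope component cornifelin, went from 0 and 0 to 317 and 308 CPM, at least 5320-fold higher, with the floor set at 3 counts over the group. 2300002M23Rik went from 0 and 0 to 128 and 112 CPM, at least 2040-fold higher. At E14, when Serpinb5 and Tgm1 were already high in forestomach, these 3 genes were at or under 0.398 CPM there.

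5 of the 8 tested precursors rose in the same interval. Sprr3, a small proline-rich precursor, was at 0 and 0.0723 CPM in E14 forestomach, from 2 counts, and at 99.9 and 106 at E16, a ratio of 2630 with a counting interval of 726 to 21700. Lor went from 0.342 and 0.506 CPM to 36.1 and 40.0 (log2 difference 6.46, SE 0.92, edgeR adjusted p = 1.01e-05). Sprr1a went from 0.941 and 1.08 to 114 and 97.1 CPM (log2 difference 6.69, SE 0.51, adjusted p = 7.41e-09). For each of the 3 precursors the days did not overlap. Lce3a and Sprr2g, counted in E16 forestomach at 1.54 and 4.29 and at 1.23 and 1.38 CPM, had no count there at E14. The Lce3a rise was lost without either E14 library and the Sprr2g rise without E14 replicate 2. Involucrin (Ivl) was low throughout the wild type, with 0.463 and 1.22 CPM in E16 forestomach, and was not called there.

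Of the genes that had come up first, Lypd3 rose further, from 8 and 7.41 to 116 and 91.4 CPM (log2 difference 3.75, SE 0.71, edgeR adjusted p = 0.000298). Serpinb5 stood at 100 and 72.4 CPM, Tgm1 at 82.1 and 59.5 and Lypd2 at 20.2 and 22.8 at E16, none of them called between E14 and E16. Suprabasin (Sbsn) had been at 1.41 and 1.19 CPM at E14 and reached 17 and 14.7. At E16, 16 genes were higher and 2 lower in forestomach than in small intestine (of all genes tested, 18.6% were called higher and 16.4% lower, 35.0% in all). All 7 secreted or surface genes, 5 of the 8 tested precursors, 2 transglutaminases and 2 cadherins made up the 16. The median log2 fold change of the 26 was 5.24 as fitted and 4.73 with genes at 0 in 1 group set at their bounds, against 0 over all genes tested, with the proviso on the filter given above. RLE scaling moved that last median to 0.19, and between E14 and E16 in forestomach it moved the median of all genes from 0 to 0.26 and the share of rises among all called genes from 55.2% to 67.6%.

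**Figure D2:**
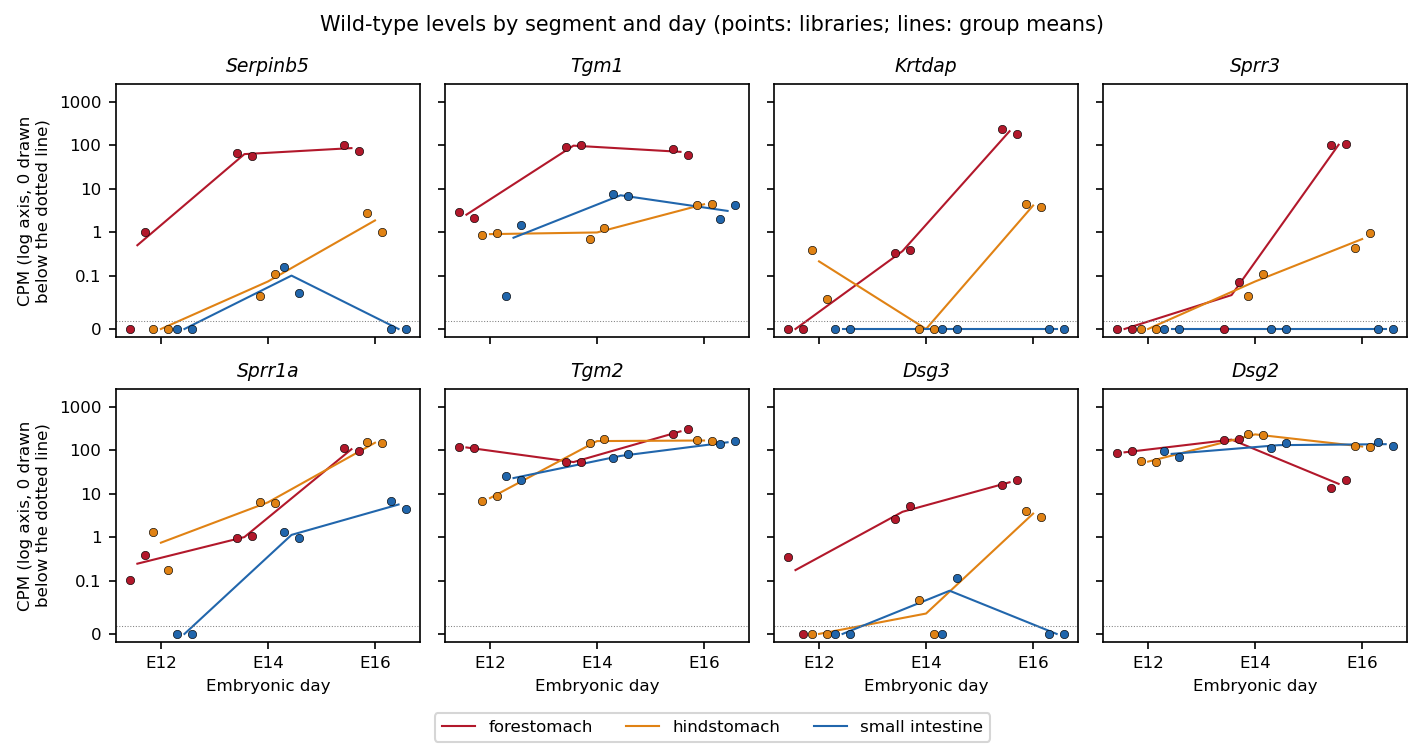
CPM of 8 genes (log axis, with 0 drawn below the dotted line) at E12, E14 and E16 in wild-type forestomach, hindstomach and small intestine, with points for libraries and lines through the group means. Serpinb5 and Tgm1 are already high in E14 forestomach (58.2 to 103 CPM), Krtdap and Sprr3 come up at E16, Sprr1a rises in both stomach segments, and Dsg2 falls in E16 forestomach to 13.4 and 20.4 CPM.

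The marker genes of mesenchyme and blood given above rose in E16 forestomach together with these genes, and its 5 epithelial markers (Epcam and Cdh1 among them) took 0.157% to 0.162% of counts against 0.465% to 0.473% in E14 forestomach and 0.839% to 0.862% in E16 small intestine. Their part in the differences at E16 was not tested. DESeq2 did not call 2300002M23Rik (adjusted p = 0.106), Lce3a (0.343) or Sprr2g (0.419) between E14 and E16, and it called the other 6 genes that the naming rule took for this interval.

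The hindstomach shared part of this at E16 and at other levels. 11 genes were higher and 0 lower in hindstomach than in small intestine at E16 (of all genes tested, 17.5% were called higher and 8.10% lower, 25.7% in all). Sprr1a was at 154 and 144 CPM in E16 hindstomach against 6.79 and 4.53 in small intestine (log2 difference 4.71, SE 0.44, edgeR adjusted p = 1.92e-07). The hindstomach libraries were above both forestomach libraries of that day (114 and 97.1 CPM), but this was not called. At E14 Sprr1a had been lower in forestomach, at 0.941 and 1.08 CPM, than in hindstomach, at 6.53 and 6.17 (log2 difference -2.64, SE 0.49, edgeR adjusted p = 0.00112). From E14 to E16, 10 genes rose and 1 fell in hindstomach (of all genes tested, 16.5% rose and 5.50% fell, 22.0% in all).

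Of the other genes that rose in hindstomach, several were far lower there than in forestomach. Krtdap reached 4.44 and 3.83 CPM there, Serpinb5 2.71 and 1.04, Lypd3 2.57 and 1.61, and Sprr3 0.444 and 0.957. In E16 small intestine these 4 genes had 0 counts in both libraries. The rise of Serpinb5 in hindstomach was lost without replicate 1 of either day, and that of Lypd3 without E14 replicate 2. Against hindstomach, 12 genes were higher in E16 forestomach and 1 was lower (of all genes tested, 6.27% were called higher and 13.8% lower, 20.1% in all). Of all genes called in that comparison 31.2% were higher with TMM and 43.5% with RLE scaling, while 12 of the genes described here were higher and 1 lower under both. Krtdap was 5.67 higher on the log2 scale (SE 0.64, edgeR adjusted p = 4.95e-05), Sprr3 7.19 (SE 0.73, adjusted p = 7.60e-06), Lor 5.26 (SE 0.86, adjusted p = 0.000103) and Serpinb5 5.52 (SE 0.75, adjusted p = 3.20e-05). Cnfn, at 317 and 308 against 0.621 and 4.44 CPM, was called by edgeR (adjusted p = 0.000174) and not by DESeq2 (adjusted p = 0.182). The squamous markers Krt5, Krt14, Krt15 and Trp63 also rose in hindstomach, from 0.00345% to 0.00359% of counts at E14 to 0.0141% to 0.0174% at E16. Over the same days the hindstomach share of the 10 mesenchyme and muscle genes went from 0.0157% to 0.017% up to 0.859% to 0.887%, and that of the 10 blood and immune genes from 0.000689% to 0.000704% up to 0.207% to 0.275%. The share of 6 nerve and glia genes went from 0.00222% to 0.00238% up to 0.0563% to 0.0577%, and the part of these markers was not tested. The difference between the stomach segments itself changed from E14 to E16 for 7 genes, upward for 4 and downward for 3 (of all genes tested, 4.35% were upward and 7.44% downward, 11.8% in all). Without replicate 2, the hindstomach library with the higher Cnfn and 2300002M23Rik values, 7 genes instead of 11 were called against small intestine. Without small intestine replicate 1 there were 6.

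The transglutaminases other than Tgm1 each had a pattern of their own. Tgm2, the widely expressed tissue transglutaminase, was at 118 and 114 CPM in E12 forestomach against 6.77 and 9.10 in hindstomach and 25.7 and 20.2 in small intestine. The order was the opposite at E14, when forestomach held 52.4 and 54.6 CPM and hindstomach 148 and 177 (log2 difference -1.60, SE 0.17, edgeR adjusted p = 2.27e-06). At E16 forestomach was at 238 and 305 CPM, hindstomach at 176 and 159 and small intestine at 142 and 163, and no pair of segments was called. Tgm7 was highest in E14 hindstomach, at 21.9 and 21.4 CPM against 4.24 and 3.14 in forestomach and 4.98 and 4.50 in small intestine. It fell in hindstomach to 0.666 and 0.783 CPM at E16 (log2 difference -4.89, SE 1.08, edgeR adjusted p = 0.00322). Tgm3, the epidermal transglutaminase, was counted in E16 forestomach at 1.85 and 1.07 CPM and had 0 counts there at E12 and E14.

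The 9 desmosomal cadherins lie together on chromosome 18, with 0 other genes of the count table between them. Dsg2, the desmoglein of simple epithelia and basal layers, was at 85.1 and 94.1 CPM at E12, at 170 and 181 at E14, and at 13.4 and 20.4 at E16. The E16 forestomach libraries were below those of every other group. Their epithelial markers took 0.157% to 0.162% of counts against 0.465% to 0.473% in E14 forestomach, and the part of this was not tested. The fall of Dsg2 from E14 to E16 was -3.38 on the log2 scale (SE 0.23, edgeR adjusted p = 7.21e-10). At E16 forestomach was lower than small intestine, at 152 and 124 CPM, by -3.03 (SE 0.22, edgeR adjusted p = 1.93e-09). Hindstomach, at 127 and 117 CPM, did not fall to this level (forestomach against hindstomach -2.85, SE 0.22, adjusted p = 1.32e-08). Its partner Dsc2 was at 36.6 and 37.5 CPM in E16 forestomach and at 172 and 144 in small intestine (log2 difference -2.09, SE 0.64, edgeR adjusted p = 0.0114, lost when either forestomach library was left out).

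Dsg3 and Dsc3, the pair of the lower layers of stratified epithelia, had their highest levels in E16 forestomach. Dsg3 was at 0.352 and 0 CPM in E12 forestomach, at 2.57 and 5.13 at E14 and at 16.2 and 20.5 at E16, when small intestine had 0 counts (at least 234-fold higher in forestomach). Dsc3 was at 0.458 and 0, 1.5 and 4.66, and 23.3 and 18.5 CPM on the same days. Of the steps between days in forestomach, Dsg3 from E12 to E14 was the one called (edgeR adjusted p = 0.0204, lost without replicate 2 of either day). Both were also counted in E16 hindstomach, Dsg3 at 3.99 and 3.00 CPM, higher than at E14 (edgeR adjusted p = 0.00319), and Dsc3 at 4.61 and 5.96. Neither was called between the stomach segments at E16. Of the cadherins of the uppermost layers, Dsc1, Dsg1a, Dsg1b and Dsg1c did not pass the filter on low counts. Dsg4 was counted at E18, with 1.23 and 1.32 CPM in small intestine.

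In wild-type small intestine itself few of these genes moved. From E14 to E16, 2 rose and 2 fell (of all genes tested, 13.7% rose and 11.9% fell, 25.6% in all). From E16 to E18, 4 rose and 2 fell (of all genes tested, 20.1% rose and 22.1% fell, 42.1% in all). Sprr1a went from 1.32 and 0.947 CPM at E14 to 6.79 and 4.53 at E16 and 0.822 and 0.274 at E18. The E16 libraries were above those of both other days (log2 differences 2.26, SE 0.47, edgeR adjusted p = 0.000799 from E14 to E16, and -3.49, SE 0.63, adjusted p = 0.000134 from E16 to E18). From E14 to E16 the mesenchyme and muscle share of small intestine went from 0.0389% to 0.045% up to 0.152% to 0.168% and the blood and immune share from 0.00532% to 0.00616% up to 0.0469% to 0.0473%, and their part was not tested. Dsg2 rose to 324 and 329 CPM at E18 (log2 difference 1.24, SE 0.20, edgeR adjusted p = 2.82e-05). E16 cells were sorted and E18 epithelium was released as villi, so age and preparation cannot be told apart from E16 to E18, when the mesenchyme and muscle share went from 0.152% to 0.168% down to 0.00263% to 0.00278%.

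In the E10-deleted small intestine at E16, envelope genes of the forestomach were counted that stood at or near 0 in wild-type small intestine of that day. 15 genes were higher and 3 lower (of all genes tested, 23.9% were called higher and 27.6% lower, 51.5% in all). Lypd2 was at 133, 265 and 204 CPM against 0 and 0, at least 2480-fold higher. Serpinb5 was at 111, 95.5 and 35.7 CPM against 0 and 0, at least 1120-fold higher. The 3 libraries stood apart from wild type for both genes, and replicate 3 was the lowest for Serpinb5.

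Among the precursors, Sprr1a was at 524, 747 and 362 CPM against 6.79 and 4.53 (log2 difference 6.58, SE 0.47, edgeR adjusted p = 7.10e-10). Sprr3 was at 106, 95 and 32.4 CPM against 0 and 0, at least 1080-fold higher. Sprr2b was at 1.67, 2.94 and 1.85 CPM and involucrin (Ivl) at 3.34, 2.68 and 0.865, the highest group mean of Ivl. Of the secreted genes, Krtdap was at 18.2, 40.7 and 15.6 CPM and Cnfn at 33.5, 37.6 and 6.05, against 0 and 0 and against 0 and 0.164. Sbsn was at 15.5, 17 and 14.1 CPM against 0.906 and 0.764 (log2 difference 4.21, SE 0.54, edgeR adjusted p = 1.11e-06). All 7 secreted or surface genes, 5 of the 8 tested precursors, Tgm1, Tgm3 and Dsg3 made up the 15.

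The genes that fell were Tgm2, Tgm7 and Dsc2. Tgm2 was at 54.8, 64.2 and 75.7 CPM against 142 and 163 (log2 difference -1.23, SE 0.15, edgeR adjusted p = 7.92e-07). Dsc2 was at 40.7, 67.4 and 54.1 CPM against 172 and 144 (log2 difference -1.55, SE 0.55, adjusted p = 0.019, lost without small intestine replicate 1 or without knockout replicate 1). Replicate 3 held the least of the squamous markers, with Krt5, Krt14, Krt15 and Trp63 at 0.039% of its counts against up to 0.170% in the others. The 5 stomach markers took 0.249% to 0.558% of counts in the 3 libraries, against 0.000485% to 0.000628% in E16 small intestine and 0.00513% to 0.00588% in E16 forestomach. Krt1, Krt10, Krt2 and Krt77, keratins of skin epidermis rather than gut, took 0.00372% to 0.00833%, against 0.000575% to 0.000677% in E16 small intestine and 0.00248% to 0.00482% in E16 forestomach. Replicate 3 held the most of them, Krt10 gave 3333 of their counts over the 3 libraries, and Krt2 gave 1. Against E16 small intestine, the mesenchyme and muscle share was lower, at 0.0103% to 0.0137% against 0.152% to 0.168%, as were the blood and immune share, at 0.00517% to 0.018% against 0.0469% to 0.0473%, and the intestine markers, at 0.00334% to 0.00684% against 0.235%. Without replicate 3, 15 genes were higher and 2 lower. With DESeq2, 2300002M23Rik (adjusted p = 0.18) and Sprr2b (0.0743) were not called, and the part of the marker shares in the results was not tested.

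Between the E10-deleted libraries and E16 forestomach, the share of these genes that was called was near that of all genes. 4 of 26 were higher and 10 lower in the E10-deleted libraries (of all genes tested, 24.7% were called higher and 28.7% lower, 53.3% in all). Sprr1a, at 524, 747 and 362 CPM, exceeded forestomach, at 114 and 97.1, by 2.36 on the log2 scale (SE 0.37, edgeR adjusted p = 1.87e-05). Lypd2, at 133, 265 and 204 CPM against 20.2 and 22.8, exceeded it by 3.22 (SE 0.39, adjusted p = 2.76e-06). No E10-deleted library overlapped the forestomach for either gene. Dsg2 was also higher, at 67.0, 107 and 85.6 CPM against 13.4 and 20.4 (log2 difference 2.36, SE 0.21, edgeR adjusted p = 8.85e-09).

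The 2 groups also differed in marker shares, whose part was not tested. Mesenchyme and muscle genes took 0.0103% to 0.0137% of counts in the E10-deleted libraries against 2.21% to 2.63% in forestomach, blood and immune genes 0.00517% to 0.018% against 1.59% to 2.02%, epithelial markers 0.863% to 1.71% against 0.157% to 0.162%, and squamous markers 0.039% to 0.17% against 0.548% to 0.673%.

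The 10 lower genes came from all 4 roles. Lor was at 0.134, 1.85 and 2.10 CPM against 36.1 and 40.0 (log2 difference -4.85, SE 0.73, edgeR adjusted p = 8.72e-06). Lce3a had 0 counts in all 3 libraries against 1.54 and 4.29 CPM, at least 34.1-fold lower. Krtdap (log2 difference -3.08, SE 0.49, edgeR adjusted p = 0.000173), Cnfn (-3.59, SE 0.71, adjusted p = 0.000697) and Dsc3 (-4.07, SE 1.17, adjusted p = 0.0061) were also lower. Tgm1, at 11.6, 16 and 7.41 against 82.1 and 59.5 CPM, was lower by -2.59 (SE 0.53, edgeR adjusted p = 0.000272), while Sprr3 and Serpinb5 were not called. Tgm2, at 54.8, 64.2 and 75.7 against 238 and 305 CPM, was lower by -2.07 (SE 0.15, edgeR adjusted p = 6.19e-10). DESeq2 called 9 rather than 14 of these genes and did not call Krtdap (adjusted p = 0.0877), Cnfn (0.404), Lce3a (0.338), 2300002M23Rik (0.698) or Sprr2b (0.4).

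**Figure D3:**
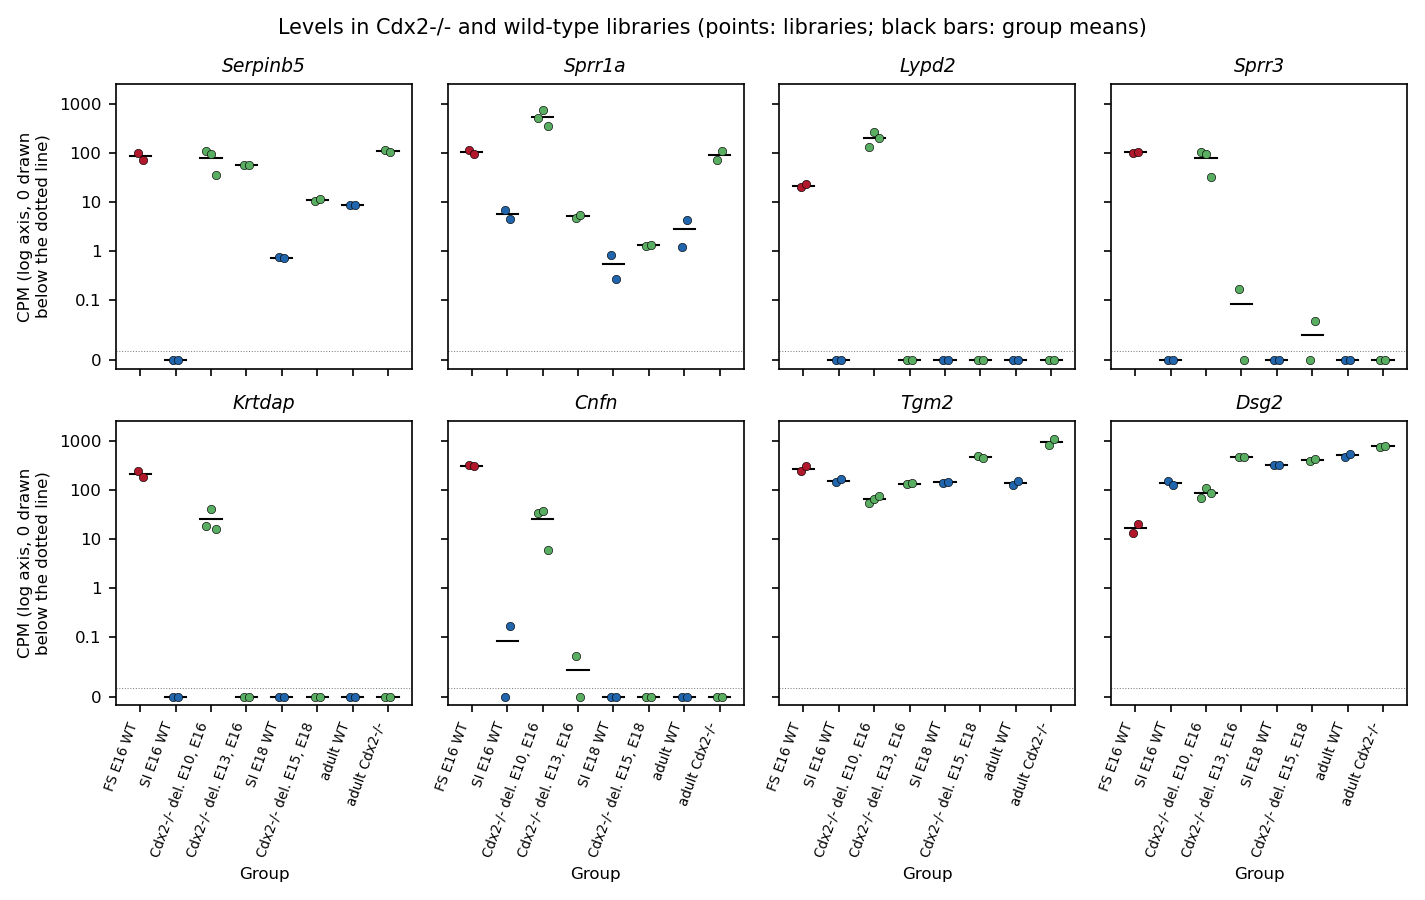
CPM of 8 genes (log axis, with 0 drawn below the dotted line) in E16 forestomach and in wild-type and Cdx2-/- intestinal groups, with points for libraries and black bars for group means. Serpinb5 is higher in all 4 Cdx2-/- groups than in wild-type intestine of that age, Lypd2, Krtdap and Cnfn are counted above 1 CPM only in forestomach and the E10-deleted libraries among these groups, and Tgm2 is highest in the adult Cdx2-/- libraries at 829 and 1080 CPM.

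In the libraries labelled deleted at E13, most envelope genes counted after deletion at E10 were at or near 0. 4 genes were higher and 1 lower than in E16 wild-type small intestine (of all genes tested, 18.7% were called higher and 20.8% lower, 39.5% in all). Serpinb5 was at 56.8 and 57.1 CPM against 0 and 0, at least 725-fold higher. Krtdap, Lypd2 and 2300002M23Rik had 0 counts in both libraries, and Sprr1a was at 4.79 and 5.53 CPM against 6.79 and 4.53. Cnfn was at 0.0413 and 0 CPM and Sprr3 at 0.165 and 0.

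The other genes higher in these libraries were Dsg2, Sbsn and Tgm4. Dsg2 was at 475 and 471 CPM against 152 and 124 (log2 difference 1.77, SE 0.20, edgeR adjusted p = 4.57e-07). Tgm4, a transglutaminase best known from the prostate, was at 9.30 and 11.4 CPM against 3.52 and 3.11 (log2 difference 1.64, SE 0.38, adjusted p = 0.00122). Sbsn was at 2.44 and 2.85 against 0.906 and 0.764 CPM (lost without replicate 2 of either group), and Tgm1 fell to 0.413 and 0.312 from 2.06 and 4.15 CPM (log2 difference -3.07, SE 0.76, adjusted p = 0.00217). Set directly against the E13-deleted group, the E10-deleted libraries were higher in 15 genes and lower in 4 (of all genes tested, 28.1% were called higher and 29.3% lower, 57.4% in all). The 4 lower genes were Dsg2 (-2.45, SE 0.18, edgeR adjusted p = 3.07e-10), Dsc2, Tgm2 and Tgm4. In the E13-deleted libraries the stomach markers took 0.181% to 0.186% of counts, the blood and immune genes 0.13% to 0.135% against 0.0469% to 0.0473% in wild type, and the mesenchyme and muscle genes 0.00526% to 0.0056% against 0.152% to 0.168%, and the part of these was not tested. The Tgm2 difference of -1.04 was under the fold minimum with RLE scaling (-0.89), with DESeq2 (-0.89), in thinned counts (-0.87) and without E10-deleted replicate 1 (-0.93).

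In the libraries labelled deleted at E15 and taken at E18, 2 genes were higher and 0 lower than in wild type of that day (of all genes tested, 7.79% were called higher and 9.70% lower, 17.5% in all). Serpinb5 was at 10.5 and 11.4 CPM against 0.740 and 0.714 (log2 difference 3.90, SE 0.81, edgeR adjusted p = 0.00147). Tgm2 was at 494 and 442 CPM against 140 and 143 (log2 difference 1.73, SE 0.17, adjusted p = 4.17e-07). The groups did not overlap for either gene. A fit of only these 4 libraries called 4 genes. Against E18 wild type, the liver and pancreas genes took 0.0445% to 0.0489% of counts against 0.00371% to 0.00399%, the stomach markers 0.00278% to 0.003% against 2.66e-05% to 2.86e-05%, the epithelial markers 0.996% to 1.06% against 0.559% to 0.572%, the intestine markers 0.252% to 0.257% against 0.619% to 0.624% and the blood and immune genes 0.0119% against 0.0487% to 0.0511%. The part of these shares was not tested. The effect at E13 minus the effect at E15, tested as a difference, was positive for 5 genes and negative for 2 (of all genes tested, 19.8% were positive and 18.1% negative, 37.9% in all). The 2 effects were measured at different ages, E16 and E18, on cells sorted at E16 and released as villi at E18. Neither age nor preparation can be told apart from the day of deletion.

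In the adult ileum, 4 genes of the 10 tested were higher in the libraries labelled Cdx2-/- and 0 were lower (of all genes tested, 8.41% were called higher and 12% lower, 20.4% in all). Serpinb5 was at 115 and 107 CPM against 8.63 and 8.67 (log2 difference 3.68, SE 0.13, edgeR adjusted p = 0.000718). Sprr1a was at 73.4 and 112 CPM against 1.19 and 4.31 (log2 difference 5.06, SE 0.61, adjusted p = 0.00676). Tgm2 was at 829 and 1080 CPM against 128 and 152 (log2 difference 2.77, SE 0.20, adjusted p = 0.00275). In each case both Cdx2-/- libraries were far above both wild-type libraries.

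Sprr2f was counted at 0.828 and 1.57 CPM in the adult Cdx2-/- libraries and had 0 counts in wild type, at least 12.3-fold higher (edgeR adjusted p = 0.0218, lost when any of the 4 libraries was left out). Sprr2b was at 5.55 and 6.92 against 3.00 and 3.46 CPM and was not called. Dsg2 was at 753 and 794 CPM against 475 and 551, and Dsc2 at 241 and 286 against 257 and 263, neither called. Krtdap, Cnfn, Lypd2, Lce3a and Sprr3 had 0 counts in all 4 adult libraries, and the squamous markers Krt5, Krt14, Krt15 and Trp63 took at most 0.000128% of counts. In the adult Cdx2-/- libraries 7 liver and pancreas genes took 0.0159% to 0.0453% of counts against 0.00061% to 0.00144% in wild type, the 5 epithelial markers 1.7% to 1.91% against 0.783% to 1.06%, and the 5 intestine markers 0.411% to 0.416% against 0.73% to 0.761%. Blood and immune genes took 0.0304% to 0.0335% in Cdx2-/- against 0.0663% to 0.224% in wild type, and stomach markers 0.000535% to 0.0011% against 0% to 1.23e-05%. The part of these shares in the adult differences was not tested.

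**Figure D4:**
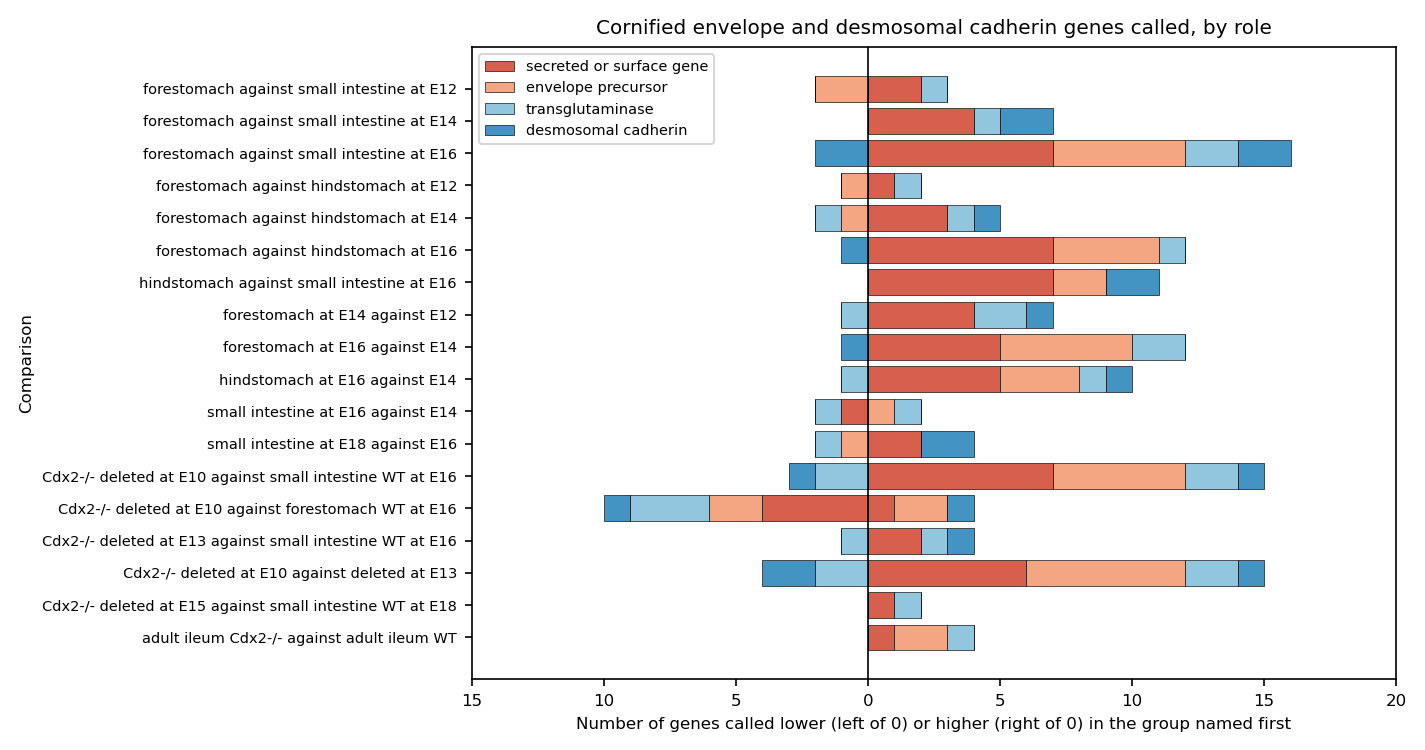
Number of the 26 genes tested in the embryo (10 in the adult) called lower (left of 0) or higher (right of 0) in the group named first, for 18 comparisons and by role. The longest bars to the right are forestomach against small intestine at E16 (16 genes) and the E10-deleted libraries against small intestine (15) and against the E13-deleted libraries (15).

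Other genes of stratified epithelium, from lists kept beside the 61, were counted in the same way. Of all genes tested, 35.0% were called in forestomach against small intestine at E16, 51.5% in the E10-deleted, 39.5% in the E13-deleted, 17.5% in the E15-deleted and 20.4% in the adult comparison with wild type. All 8 stratified keratins were higher in forestomach than in small intestine at E16 and 8 of 8 in the E10-deleted libraries than in small intestine, while 0 of 8 were called in the E13-deleted or E15-deleted libraries. Krt13 was at 610 ± 36.5 CPM in E16 forestomach and 701 ± 413 in the E10-deleted libraries (SD, n = 2 and n = 3) against 0.0546 ± 0.0772 in E16 small intestine (SD, n = 2). Of 6 desmosomal plaque genes, which link the cadherins to keratin, 3 were higher and 1 lower in E16 forestomach than in small intestine. Pkp1, a plakophilin of stratified epithelia, was at 62.4 ± 4.71 CPM in E16 forestomach and had 0 counts in E16 small intestine, but was at 26.8 ± 1.03 in E18 small intestine (SD, n = 2 each). In the E13-deleted libraries 4 of the 6 plaque genes were higher and 0 lower.

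Of 9 tested envelope scaffold and other precursor genes, 6 were higher and 1 lower in E16 forestomach than in small intestine, and 7 were higher and 0 lower in the E10-deleted libraries. In the adult Cdx2-/- libraries 3 of 8 were higher and 2 lower. Envoplakin (Evpl), a scaffold protein of the envelope, was one of the lower genes, at 4.02 ± 1.99 CPM against 170 ± 63.4 (SD, n = 2 each), and Anxa1, an envelope-associated annexin, was at 63.1 ± 2.58 against 0.148 ± 0.0318. Of 3 tested fused S100 proteins, 2 were higher in E16 forestomach and 0 in the E10-, E13- or E15-deleted libraries against wild-type intestine of their age. Trp63, the transcription factor of stratified basal cells, was at 456 ± 2.59 CPM in E14 forestomach and 82.0 ± 6.58 at E16, and at 16.2 ± 7.19 in the E10-deleted libraries (SD, n = 2, n = 2 and n = 3). Of 7 tested desquamation proteases and inhibitors, 3 were higher and 2 lower in E16 forestomach, and 3 were higher and 1 lower in the E10-deleted libraries, than in small intestine.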

How the data were processed

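The series holds 74 samples: 31 RNA-seq libraries, used here, and 38 ATAC-seq and 5 ChIP-seq samples, not analysed here. The deposited table holds read counts per gene, made by the authors from single-end reads. The submitters' processing notes name STAR 2.5.3a, HTSeq, Bowtie2, MACS2 and the build mm9 without giving each a role. The strand setting and annotation are not given in the sources used here, so reads of overlapping genes on opposite strands may not be separated. Each adult column held 2 blank cells, which were closed up (the 7 Tgm genes lie below the first). 2 columns that match no sample and 2 rows without a gene name were left out.

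Genes were filtered with filterByExpr (minimum count 10), scaled by TMM and tested with edgeR 4.0.16 (quasi-likelihood, R 4.3.3), embryonic and adult libraries apart, since their library kits differ. All 13 embryonic groups shared 1 fit. A gene was called at a Benjamini-Hochberg adjusted p under 0.05 over all genes tested and a log2 difference of at least 1, in 20 comparisons, 2 of them differences of differences. Against a group at 0, folds are lower bounds from a floor of 3 counts over the group, and against a group of 1 to 3 counts ratios carry a 95% counting interval, which covers counting error only. The scripts were tested on simulated data.

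The members and gene lists were chosen with earlier results of these data known. For each comparison the called members with the largest changes were named, up to 8 in each direction, where a group mean reached 1 CPM. In comparisons of 2 groups their libraries also had not to overlap. For genes named by this rule the lack of overlap is thus no further support for a call. Other members named in the text were chosen after their values were seen. Replicate numbers come from the sample titles. Deviations of same-numbered embryonic libraries correlated between -0.04 and 0.1, and those of the adult libraries at -0.15. The numbers thus showed no strong shared shift. This cannot tell whether same-numbered libraries came from the same animals or litters. The alternatives were RLE scaling, DESeq2 1.42.0, no low-count filter, no fold minimum, a fit of only the groups compared, thinning to 5970227 counts, a replicate block, 1 fit of all 31 libraries, the adult columns as deposited and leaving out each library. Counts over a list of regulators are not reported here.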

Additional observations from a re-analysis of the deposited data

Results flagged for a closer look

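The difference between forestomach and hindstomach itself differed between E14 and E16 for 7 genes (edgeR interaction, log2 scale, E16 minus E14). It was 8.01 for Sprr3 (SE 2.10, adjusted p = 0.0202), 3.2 for Sbsn (SE 0.70, adjusted p = 0.00386), 2.3 for Tgm2 (SE 0.24, adjusted p = 2.37e-06) and 2.14 for Sprr1a (SE 0.62, adjusted p = 0.0248). It was -4.13 for Serpinb5 (SE 1.33, adjusted p = 0.0455), -2.62 for Tgm1 (SE 0.87, adjusted p = 0.0454) and -2.46 for Dsg2 (SE 0.29, adjusted p = 1.05e-05). The Sprr3 value rests on very few counts in E14 forestomach, and it ran from 7.06 to 11.1 with 1 library left out. With 1 library left out in turn, the call was lost in 8 of 8 fits for Tgm1, in 7 of 8 for Serpinb5 and Sprr1a, in 1 of 8 for Sprr3 (without hindstomach E14 replicate 2, adjusted p = 0.309) and in 0 of 8 for Sbsn, Tgm2 and Dsg2. RLE scaling and thinning each ended the calls of Tgm1 (edgeR adjusted p = 0.0626 and 0.0534) and Serpinb5 (0.0559 and 0.0514), DESeq2 that of Serpinb5 (0.0546), and thinning that of Sprr3 (0.242). Tgm2 in forestomach was below hindstomach at E14 and not called apart from it at E16, and Serpinb5 was far above it on both days.

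The effect in the libraries labelled deleted at E13 differed from that in the libraries labelled deleted at E15 for 7 genes (E13 minus E15, each against wild type of its age), 6 of which reached a group mean of 1 CPM. The other, Tgm5, was at most at 0.326 CPM as a group mean. The difference was 9.52 for Serpinb5 (SE 2.29, edgeR adjusted p = 0.00279), a fitted value that depends on the prior count because E16 wild type had 0 counts. It was 1.88 for Sbsn (SE 0.71, edgeR adjusted p = 0.0376), 1.51 for Tgm4 (SE 0.52, adjusted p = 0.0252) and 1.46 for Dsg2 (SE 0.28, adjusted p = 0.000237). It was -3.34 for Tgm1 (SE 1.15, edgeR adjusted p = 0.0236) and -1.92 for Tgm2 (SE 0.24, adjusted p = 2.14e-06). With 1 library left out in turn, the call was lost in 7 of 8 fits for Sbsn, in 5 of 8 for Tgm1, in 4 of 8 for Tgm4 and in 0 of 8 for Serpinb5, Tgm2 and Dsg2. Without the filter on low counts Sbsn was not called (edgeR adjusted p = 0.0537). Age and preparation cannot be told apart from the day of deletion in these differences.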

How the results depend on the processing

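Of 137 results for named genes, 87 kept their direction and call under every alternative run, 50 lost the call under at least 1, and 0 reversed. Leaving out 1 library ended calls for 38 of the 137, DESeq2 for 23 of 136, and RLE scaling for 3. Of the 20 counts of genes called, 10 stayed within 1.5 times under every alternative. For forestomach against small intestine at E12 (5 genes), DESeq2 called 8, a fit of only the groups compared 1, the thinned counts 3, and fits without 1 library 2 to 7 (3 without forestomach replicate 1, 2 without its replicate 2, 3 without small intestine replicate 1). For E10-deleted libraries against forestomach (14 genes) DESeq2 called 9, and for E15-deleted libraries against E18 wild type (2 genes) a fit of only these groups called 4. Thinning left 4 of 7 genes in the change of the difference between stomach segments, and fits without 1 library 3 to 5. Other ranges without 1 library were 1 to 4 for forestomach against hindstomach at E12 (3 genes, 1 without forestomach replicate 2), 4 to 7 for forestomach against small intestine at E14 (7 genes, 4 without small intestine replicate 1), and 6 to 10 for hindstomach at E16 against E14 (11 genes, 6 without E14 replicate 1, 7 without replicate 2 of either day). They were 6 to 10 for hindstomach against small intestine at E16 (11 genes), 3 to 5 for small intestine at E18 against E16 (6 genes, 3 without either E16 library), and 3 to 6 for the difference of knockout effects (7 genes, 3 without small intestine E16 replicate 2 or E13-deleted replicate 2). The causes were not tested. RLE scaling moved the share of upward calls among all genes in the change between stomach segments from 36.9% to 50.5%.

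The replicate block used numbers that showed no strong shared shift between groups. It gave 18 genes for forestomach against small intestine at E16, 17 for the E10-deleted libraries against small intestine and 12 against forestomach. For the E13-deleted comparison it gave 6 and for the adult comparison 4. It ended 1 of the 137 calls, Sprr2b in the E10-deleted libraries against forestomach (adjusted p = 0.0765). Crossing the adult numbers also gave 4 genes. The E16 forestomach libraries were the shallowest, which limits what could be detected of low genes there.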
